A study of Mus musculus with 8 samples.

Results

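The BCL2 family was described by 10 genes, which were the rows of the deposited expression table named Bcl2, Bcl2l1, Mcl1, Bax, Bak1, Bad, Bid, Bcl2l11, Bbc3 and Pmaip1, out of 54532 genes in all. They comprised 3 pro-survival genes, 2 effector genes and 5 BH3-only genes, and each of the 10 was listed once as a protein-coding gene and passed the filter on low values. mRNA had been sequenced from liver tissue of 4 METTL3-HKD and 4 METTL3-Flox mice after partial warm hepatic ischemia/reperfusion (I/R). Both groups had 1 h of ischemia and 6 h of reperfusion. In this model only part of the liver loses its blood supply, and the study does not state which lobes were sequenced. METTL3-HKD mice are heterozygous, hepatocyte-specific knockdown mice of the genotype METTL3 flox/-; Alb-iCre, in which the albumin promoter drives the Cre recombinase, and METTL3-Flox mice are their METTL3 flox/flox littermates. The floxed allele carries loxP sites around exon 4, and its founders were mated with C57BL/6 mice. METTL3 is the methyltransferase that writes N6-methyladenosine (m6A) on mRNA. Livers without ischemia were not analysed here, so the comparison is between genotypes after I/R and not between injured and uninjured liver, and the age of the sequenced mice is not given in the sources used here.

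Proteins of the BCL2 family decide at the outer mitochondrial membrane whether a cell enters the mitochondrial pathway of apoptosis. The pro-survival proteins hold the effectors BAX and BAK in check, the BH3-only proteins are released by stress signals and bind the pro-survival proteins or the effectors through a short helix called BH3, and active effectors open the membrane and let cytochrome c out. In the liver, hepatocytes are known to need BCL-XL and MCL-1 to survive, and BID links death receptors at the cell surface to the mitochondria. Much of this control lies in protein cleavage, phosphorylation and binding, which mRNA levels do not show.

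The authors deposited FPKM, which are fragments per kilobase of gene length and scaled to library size, so levels of different genes can be set side by side. Each library held between 15861245 and 18434488 reads on genes, and pairs of libraries correlated across genes with r between 0.903 and 0.969. The reads behind a member ranged from 16 to 39 per liver for Bcl2 to 1685 to 7850 for Mcl1. Differences are given as log2 fold changes of METTL3-HKD over METTL3-Flox on the log2(FPKM + 0.1) scale, with standard errors and adjusted p-values from limma, fitted to all 16645 genes whose mean reached 0.1 FPKM. Unless stated otherwise, a p called exact comes from a two-sided exact permutation test over the 70 arrangements of the 8 livers. The smallest possible p of that test is 0.0286. Mettl3 itself had 1.17 to 1.56 FPKM in METTL3-HKD livers and 1.16 to 1.84 FPKM in METTL3-Flox livers, for which limma gave a log2 fold change of −0.16 (adjusted p = 0.556). This gene-level value covers all exons, 933 bases of which Tox4 shares on the opposite strand, so it did not check the genotype labels.

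Markers of other cell types moved with genotype, at an adjusted p under 0.05, which 15.7% of all genes tested reached. All 8 neutrophil markers were higher in METTL3-HKD livers (7 without METTL3-Flox liver 3), with a summed level of 333 to 1630 FPKM against 13.1 to 44.9 FPKM, and Ly6g was at 0 in 3 of the 4 METTL3-Flox livers. METTL3-HKD liver 1 held the highest sum. Of 8 macrophage and Kupffer cell markers 4 were lower (83.2 to 175 FPKM against 164 to 380 FPKM), and of 5 cholangiocyte markers 4 were higher (119 to 369 FPKM against 52.5 to 77.6 FPKM). Most of the cholangiocyte sum was Spp1, with means of 208 FPKM in METTL3-HKD and 60.3 FPKM in METTL3-Flox livers. Krt19, Krt7 and Sox9, also called higher, had far lower levels, and Epcam missed the threshold. The count of macrophage and Kupffer cell markers fell to 0 without METTL3-Flox liver 3 or 4 or METTL3-HKD liver 3 or 4, to 1 without METTL3-Flox liver 1 and to 2 without METTL3-HKD liver 1. That of cholangiocyte markers fell to 2 without METTL3-Flox liver 2, 3 or 4 or METTL3-HKD liver 1 or 2. Of 7 hepatocyte markers only Hnf4a passed the test, and it was lower (not without METTL3-Flox liver 3 or 4 or METTL3-HKD liver 2, at an adjusted p of up to 0.0593 from limma), while the summed level was 21099 to 30933 FPKM against 27095 to 30474 FPKM, with METTL3-HKD livers 1 and 2 below all others. Of 6 stellate cell markers 1 was higher and 1 was lower, and neither call was kept in all fits that left out 1 liver, none of 6 endothelial markers passed, and 7 lymphocyte markers summed to at most 1.10 FPKM in any liver, with Cd79a, Ms4a1 or Ncr1 at 0 in some. The part of these differences in the values of the BCL2 family was not tested. In tissue of mixed cell types, fewer cells of a type and less RNA per cell cannot be told apart.

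The BH3 core is the stretch that the members have in common and by which they bind each other, so its coding sequence is shown for the 4 members that passed the test and for Mcl1, the most abundant member. Each run holds the 33 coding bases around the conserved leucine and aspartate of the core, read 5′ to 3′ on the gene's own strand from the GRCm38 genome, with the codons of that leucine and aspartate in capitals.
Bcl2l1: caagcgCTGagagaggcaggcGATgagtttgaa
Mcl1: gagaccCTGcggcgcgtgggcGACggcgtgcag
Bax: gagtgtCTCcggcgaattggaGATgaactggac
Bad: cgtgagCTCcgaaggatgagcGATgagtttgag
Bcl2l11: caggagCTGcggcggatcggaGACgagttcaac
The Bcl2l1 run lies in exon 2 at chr2:152829697-152829729 on the minus strand, and the Mcl1 run in exon 1 at chr3:95659430-95659462 on the plus strand. That of Bax lies in exon 3 at chr7:45465997-45466029 on the minus strand. For Bad it is in exon 3 at chr19:6950786-6950818 and for Bcl2l11 in exon 3 at chr2:128147144-128147176, both on the plus strand. All 5 runs are exonic and coding, and exons are numbered in the first-numbered coding transcript of GENCODE M21. Any 2 of these 5 runs shared between 14 and 21 of the 33 bases.

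In METTL3-HKD livers, 3 members rose and 1 fell at an adjusted p under 0.05. Bcl2l1, which encodes the survival protein BCL-XL, the effector Bax and Bcl2l11, which encodes the BH3-only protein BIM, were higher, and Bad, another BH3-only gene, was lower. Of all genes tested, 15.7% were called in either direction, 9.05% higher and 6.63% lower. Among the 10 members that is 1 of 3 pro-survival genes higher, 1 of 2 effectors higher, and 1 higher and 1 lower of 5 BH3-only genes, so calls in both directions came from within the BH3-only group. With the further condition of a log2 fold change of at least 1, only Bcl2l11 was called, where 6.22% of all genes were. The median log2 fold change was 0.33 over the 10 members and −0.00 over all genes tested. It was 0.81 for the pro-survival genes, 0.33 for the effectors and −0.39 for the BH3-only genes.
The 4 METTL3-HKD livers all exceeded the highest METTL3-Flox liver in 5 members and all fell short of the lowest in 1 member, where the groups did not overlap in 22.6% of all genes, 12.7% above and 9.95% below. Bak1 and Pmaip1 were thus without overlap but missed the adjusted threshold. An unadjusted p under 0.05 from limma was found for 7 of the 10 members, and for 5305 of all 16645 genes tested.

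**Figure D1:**
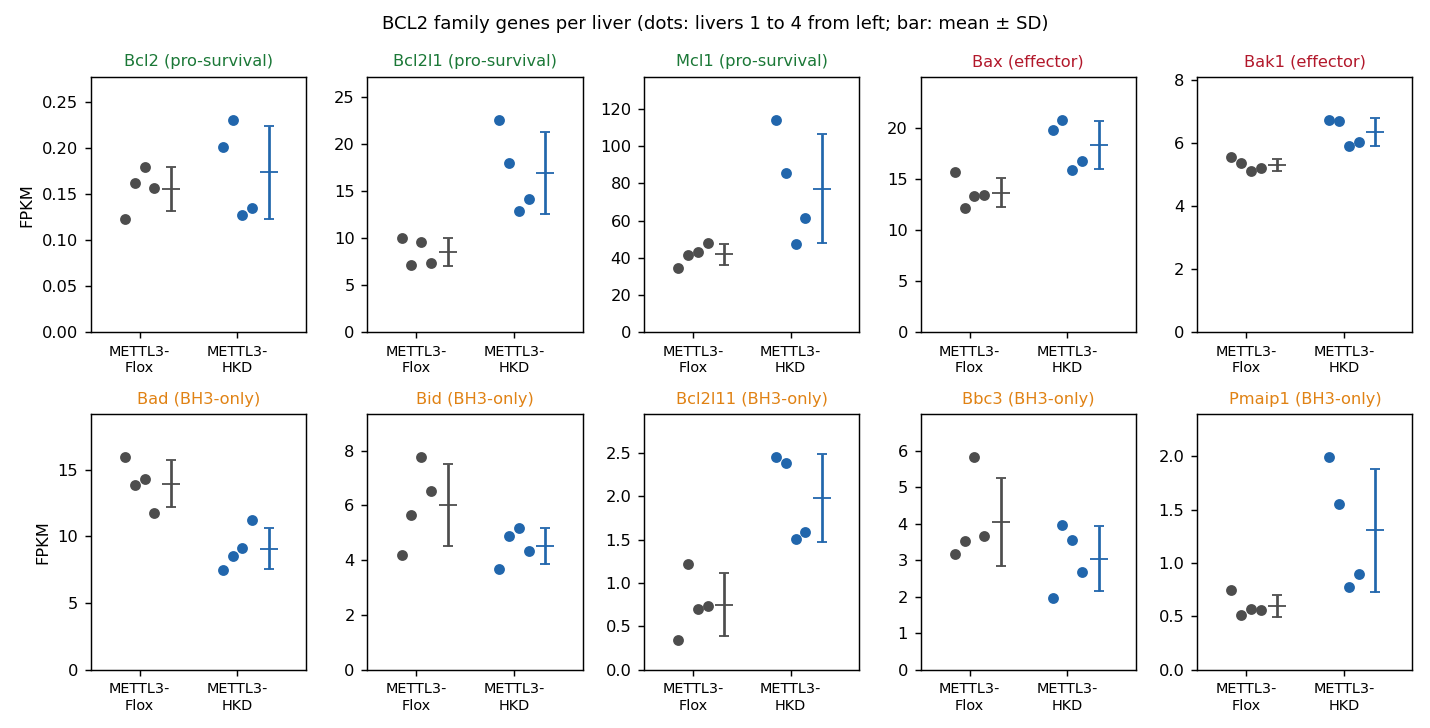
FPKM of the 10 genes in each liver, with the livers 1 to 4 of each genotype as dots from left to right and the mean ± SD as a bar; each axis starts at 0. Bcl2l1, Bax, Bak1, Bcl2l11 and Pmaip1 lay above all METTL3-Flox livers in every METTL3-HKD liver, Bad lay below, and METTL3-HKD livers 3 and 4 sat nearest to the METTL3-Flox livers for Mcl1 and Pmaip1.

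Among the pro-survival genes, Bcl2l1 (ENSMUSG00000007659) lies on the minus strand of chromosome 2 from 152780668 to 152831728. It had 9.99, 7.15, 9.62 and 7.34 FPKM in METTL3-Flox livers 1 to 4 and 22.6, 18.0, 12.8 and 14.2 FPKM in METTL3-HKD livers 1 to 4. All 4 METTL3-HKD livers were above the highest METTL3-Flox liver, with livers 1 and 2 the farthest. Means in METTL3-HKD and METTL3-Flox livers were 16.9 ± 4.37 FPKM and 8.53 ± 1.49 FPKM (SD, n = 4 each), and limma gave a log2 fold change of 0.96 ± 0.192 (SE; adjusted p = 0.0148), with an exact permutation p of 0.0286. Bcl2l1 was also past the threshold without any single liver, at log2 fold changes of 0.81 to 1.08, and it was the only member of which this held.
Mcl1 (ENSMUSG00000038612), on the plus strand of chromosome 3 from 95658788 to 95663176, encodes a survival protein that turns over quickly. It had 34.7, 41.6, 43.2 and 48.0 FPKM in METTL3-Flox livers 1 to 4 and 114, 85.5, 47.6 and 61.3 FPKM in METTL3-HKD livers 1 to 4. METTL3-HKD liver 3 lay just below the highest METTL3-Flox liver, which is the whole of the overlap. Means in METTL3-HKD and METTL3-Flox livers were 77.1 ± 29.2 FPKM and 41.9 ± 5.49 FPKM (SD, n = 4 each), and limma gave a log2 fold change of 0.81 ± 0.248 (SE; adjusted p = 0.0563), with an exact permutation p of 0.0571. The adjusted p missed the threshold. The log2 fold change was 1.02 (adjusted p = 0.0166 from limma) without METTL3-HKD liver 3. With all 8 livers, the adjusted p was under the threshold with a minimum mean of 1 FPKM (0.0462), with voom (0.0403) and with scaling to reads on genes (0.0463).
Bcl2 (ENSMUSG00000057329), the founding survival gene of the family, on the minus strand of chromosome 1 from 106538178 to 106714274, was the member with the lowest level in both groups. It had 0.123, 0.162, 0.180 and 0.156 FPKM in METTL3-Flox livers 1 to 4 and 0.201, 0.230, 0.127 and 0.135 FPKM in METTL3-HKD livers 1 to 4. METTL3-HKD livers 1 and 2 were above all METTL3-Flox livers, and livers 3 and 4 were within their range. The log2 fold change was 0.09 with a 95% confidence interval from −0.50 to 0.67 (adjusted p = 0.855 from limma; exact permutation p = 0.543), so that a change of the size of that in Bax, in either direction, was not detectable at 16 to 39 reads per liver. Its sign turned without METTL3-HKD liver 2, at −0.01.

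Of the effectors, which oligomerise in the outer mitochondrial membrane, Bax (ENSMUSG00000003873) lies on the minus strand of chromosome 7 from 45461697 to 45466898. It had 15.6, 12.2, 13.4 and 13.4 FPKM in METTL3-Flox livers 1 to 4 and 19.8, 20.8, 15.9 and 16.7 FPKM in METTL3-HKD livers 1 to 4. The groups did not overlap, but METTL3-Flox liver 1 and METTL3-HKD liver 3 nearly met. Means in METTL3-HKD and METTL3-Flox livers were 18.3 ± 2.37 FPKM and 13.6 ± 1.44 FPKM (SD, n = 4 each), and limma gave a log2 fold change of 0.42 ± 0.118 (SE; adjusted p = 0.0448), with an exact permutation p of 0.0286. The call was the least firm of the 4, and it was lost without METTL3-Flox liver 2, 3 or 4 and without METTL3-HKD liver 1, 2 or 4, where the log2 fold change was 0.35 to 0.46 and the adjusted p 0.0607 to 0.115.
Bak1 (ENSMUSG00000057789), on the minus strand of chromosome 17 from 27019810 to 27029009, encodes BAK, the other effector. It had 5.55, 5.35, 5.11 and 5.21 FPKM in METTL3-Flox livers 1 to 4 and 6.73, 6.70, 5.91 and 6.04 FPKM in METTL3-HKD livers 1 to 4. Bak1 varied the least of all members, with a coefficient of variation of 3.62% among METTL3-Flox livers and 6.81% among METTL3-HKD livers, and its groups did not overlap. By limma the log2 fold change was 0.25 ± 0.0863 (SE; adjusted p = 0.0786), with an exact permutation p of 0.0286. The adjusted p missed the threshold. Ggnbp1, expressed at a mean of 0.561 FPKM, shares exonic bases with Bak1 on the opposite strand.

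The BH3-only genes divided into those with higher and those with lower means. Bcl2l11 (ENSMUSG00000027381), on the plus strand of chromosome 2 from 128126038 to 128162547, encodes BIM, which binds every major pro-survival protein. It had 0.342, 1.22, 0.705 and 0.735 FPKM in METTL3-Flox livers 1 to 4 and 2.45, 2.38, 1.50 and 1.59 FPKM in METTL3-HKD livers 1 to 4. The lowest METTL3-HKD liver was above the highest METTL3-Flox liver, and METTL3-Flox liver 1 was low among its group. Means in METTL3-HKD and METTL3-Flox livers were 1.98 ± 0.504 FPKM and 0.750 ± 0.360 FPKM (SD, n = 4 each), and limma gave a log2 fold change of 1.36 ± 0.320 (SE; adjusted p = 0.0249), with an exact permutation p of 0.0286. This was the largest difference of the 10 on the log2(FPKM + 0.1) scale, but with a pseudocount of 1 FPKM it was 0.78, below the 0.89 of Bcl2l1 and the 0.80 of Mcl1. The call was lost without METTL3-Flox liver 3 or 4 or METTL3-HKD liver 1 or 2, with log2 fold changes of 1.25 to 1.39 and an adjusted p of 0.0543 to 0.0698.
Pmaip1 (ENSMUSG00000024521), on the plus strand of chromosome 18, encodes NOXA, a p53 target that binds MCL-1. It had 0.745, 0.515, 0.572 and 0.563 FPKM in METTL3-Flox livers 1 to 4 and 1.99, 1.55, 0.774 and 0.895 FPKM in METTL3-HKD livers 1 to 4. METTL3-HKD livers 1 and 2 stood well above the rest, and liver 3 was close to METTL3-Flox liver 1. By limma the log2 fold change was 0.93 ± 0.284 (SE; adjusted p = 0.0572), with an exact permutation p of 0.0286. Leaving out METTL3-HKD liver 3 gave a log2 fold change of 1.12 with an adjusted p of 0.0264 from limma. With all 8 livers, array weights and scaling to reads on genes also took the adjusted p under the threshold, to 0.0465 and 0.0428.
Bad (ENSMUSG00000024959), on the plus strand of chromosome 19 from 6941861 to 6951898, encodes a BH3-only protein that binds BCL-XL and is kept inactive in the cytosol by 14-3-3 proteins when phosphorylated. It had 16.0, 13.9, 14.3 and 11.7 FPKM in METTL3-Flox livers 1 to 4 and 7.51, 8.52, 9.10 and 11.2 FPKM in METTL3-HKD livers 1 to 4. METTL3-HKD liver 4, the highest of its group, lay just below METTL3-Flox liver 4, the lowest of the other. Means in METTL3-HKD and METTL3-Flox livers were 9.08 ± 1.56 FPKM and 14.0 ± 1.74 FPKM (SD, n = 4 each), and limma gave a log2 fold change of −0.62 ± 0.140 (SE; adjusted p = 0.0218), with an exact permutation p of 0.0286. Leaving out METTL3-Flox liver 2 or 3 or METTL3-HKD liver 1 or 2 took the adjusted p to 0.0517 to 0.0623, at log2 fold changes of −0.54 to −0.62. Exons of Gpr137 on the opposite strand share 524 bases with Bad in GENCODE M21, and whether the counting used strand is not given in the sources used here. The deposited length of Bad is 2007 bases against 2558 in GENCODE M21, so how much of the shared stretch was counted for Bad is not known. Gpr137 had 9.10, 6.80, 7.08 and 4.98 FPKM in METTL3-Flox livers 1 to 4 and 5.21, 5.36, 5.08 and 4.84 FPKM in METTL3-HKD livers 1 to 4, for which limma gave a log2 fold change of −0.41 (adjusted p = 0.119). It was chosen after its values were seen.
Bid (ENSMUSG00000004446), on the minus strand of chromosome 6 from 120891930 to 120916853, encodes the caspase-8 substrate that carries death receptor signals to the mitochondria. It had 4.20, 5.63, 7.76 and 6.51 FPKM in METTL3-Flox livers 1 to 4 and 3.67, 4.88, 5.18 and 4.33 FPKM in METTL3-HKD livers 1 to 4. The groups overlapped through METTL3-Flox liver 1, and the log2 fold change was −0.39 with a 95% confidence interval from −0.81 to 0.04 (adjusted p = 0.196 from limma; exact permutation p = 0.143). Bid shares 628 exonic bases with Bcl2l13 on the opposite strand.
Bbc3 (ENSMUSG00000002083), on the plus strand of chromosome 7 from 16308393 to 16318205, encodes PUMA, a p53 target. It had 3.18, 3.53, 5.82 and 3.66 FPKM in METTL3-Flox livers 1 to 4 and 1.97, 3.95, 3.54 and 2.69 FPKM in METTL3-HKD livers 1 to 4. The groups overlapped, with a log2 fold change of −0.41 and a 95% confidence interval from −0.97 to 0.15 (adjusted p = 0.289 from limma; exact permutation p = 0.257).

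Of the 10 members, 7 had the same lowest METTL3-HKD liver. For Bcl2, Bcl2l1, Mcl1, Bax, Bak1, Bcl2l11 and Pmaip1, the lowest METTL3-HKD liver was liver 3 and the highest was liver 1 or 2. For Bad, Bid and Bbc3 the lowest was liver 1, which also had the highest sum of neutrophil markers and the lowest sum of hepatocyte markers. The 7 genes include those called higher and the 3 include the gene called lower. The coefficient of variation among METTL3-HKD livers was 43.9% for Pmaip1 and 37.9% for Mcl1, against 16.8% and 13.1% among METTL3-Flox livers, while for Bcl2l11 it was 25.5% against 48.0%. No sample was set apart as an outlier in the 22 groups of 4 values that were checked.

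**Figure D2:**
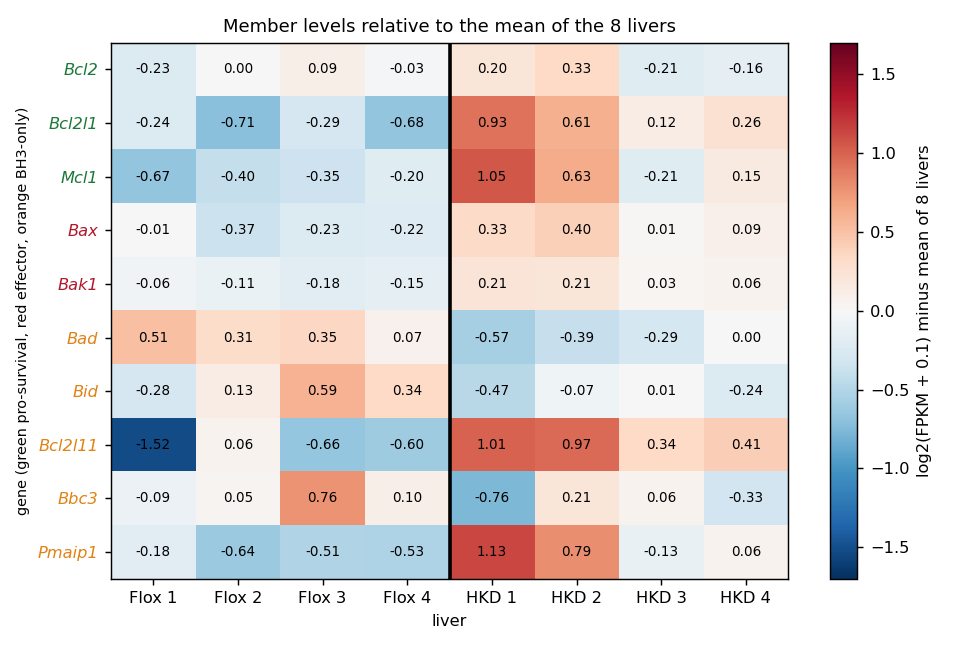
log2(FPKM + 0.1) of each member (rows) in each liver (columns), minus the mean over the 8 livers, with red for above and blue for below the mean. METTL3-HKD livers 1 and 2 carried the largest positive values for Mcl1, Pmaip1 and Bcl2l11 (1.05, 1.13 and 1.01 in liver 1), and METTL3-HKD liver 3 was at −0.21 for Mcl1.

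The order of the members by level, which FPKM allow since they are per length, differed in places between the genotypes. Mcl1 led in both groups without overlap with the next gene, and made up 44.1% of the summed level of the 10 members in METTL3-Flox livers and 55.6% in METTL3-HKD livers by the group means. In METTL3-Flox livers Bad and Bax followed with overlapping ranges, then Bcl2l1, Bid, Bak1 and Bbc3, where the ranges of neighbours overlapped. In METTL3-HKD livers Bax and Bcl2l1 followed with overlapping ranges, and Bad and then Bak1 came after them without overlap, before Bid and Bbc3. By the means, Bad thus stood in the second place in METTL3-Flox livers and in the fourth in METTL3-HKD livers, and Bcl2l1 in the fourth and in the third. Bcl2l11 and Pmaip1 overlapped each other in both groups and lay above Bcl2, which was last in both without overlap.

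Levels were then compared between members within a liver, which does not depend on how libraries are scaled to each other. The question was whether effector and pro-survival genes changed unequally. The ratio of Bax to Bcl2, a common index of the balance, was 127, 75.0, 74.4 and 86.1 in METTL3-Flox livers 1 to 4 and 98.6, 90.1, 125 and 124 in METTL3-HKD livers 1 to 4. The groups overlapped and the mean log2 ratio was higher by 0.29 in METTL3-HKD livers (two-sided exact permutation test, p = 0.229), so a difference was not shown, and the low read counts of Bcl2 limit this ratio.
Other ratios were chosen after the values of single genes had been seen and are given without a test. The ratio of Bad to Bcl2l1, a BH3-only gene and the gene of its binding partner, was 1.48 to 1.94 in METTL3-Flox livers and 0.333 to 0.790 in METTL3-HKD livers, without overlap. Bad to Bax was 0.873 to 1.14 against 0.379 to 0.671, and Bcl2l1 to Bax was 0.546 to 0.721 against 0.808 to 1.14, so that every METTL3-HKD liver had more Bcl2l1 per Bax than any METTL3-Flox liver. The ratios of Bak1 to Mcl1, Pmaip1 to Mcl1, Bcl2l11 to Bcl2l1 and Bcl2l11 to Mcl1 overlapped between the groups.
The summed level of the 3 pro-survival genes was 44.8, 48.9, 53.0 and 55.5 FPKM in METTL3-Flox livers 1 to 4 and 137, 104, 60.6 and 75.6 FPKM in METTL3-HKD livers 1 to 4. Most of that sum was Mcl1. The effectors summed to 17.5 to 21.2 FPKM in METTL3-Flox livers and 21.8 to 27.5 FPKM in METTL3-HKD livers, and the BH3-only genes to 23.2 to 29.2 FPKM and 17.6 to 21.3 FPKM. None of these 3 sums overlapped between the groups with the deposited scaling. Unlike the ratios and shares, the sums depend on how libraries are scaled, and they were not compared with another scaling. As a share of the 10 members, BH3-only genes made up 23.8% to 29.0% in METTL3-Flox livers and 9.71% to 19.6% in METTL3-HKD livers, and the share of the effectors overlapped. These shares also fall as Mcl1 rises, which made up 44.1% and 55.6% of the total by the group means. The BH3-only sum was led by Bad, with means of 14.0 and 9.08 FPKM. Bid and Bbc3 also had lower means in METTL3-HKD livers, whereas Bcl2l11 and Pmaip1 had higher means, so the BH3-only genes did not fall as a group. The pro-survival sum divided by the sum of the other 7 members was 0.982 to 1.33 in METTL3-Flox livers and 1.45 to 3.10 in METTL3-HKD livers. These sums add mRNA of proteins with unlike potency and are a description of mRNA only.

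**Figure D3:**
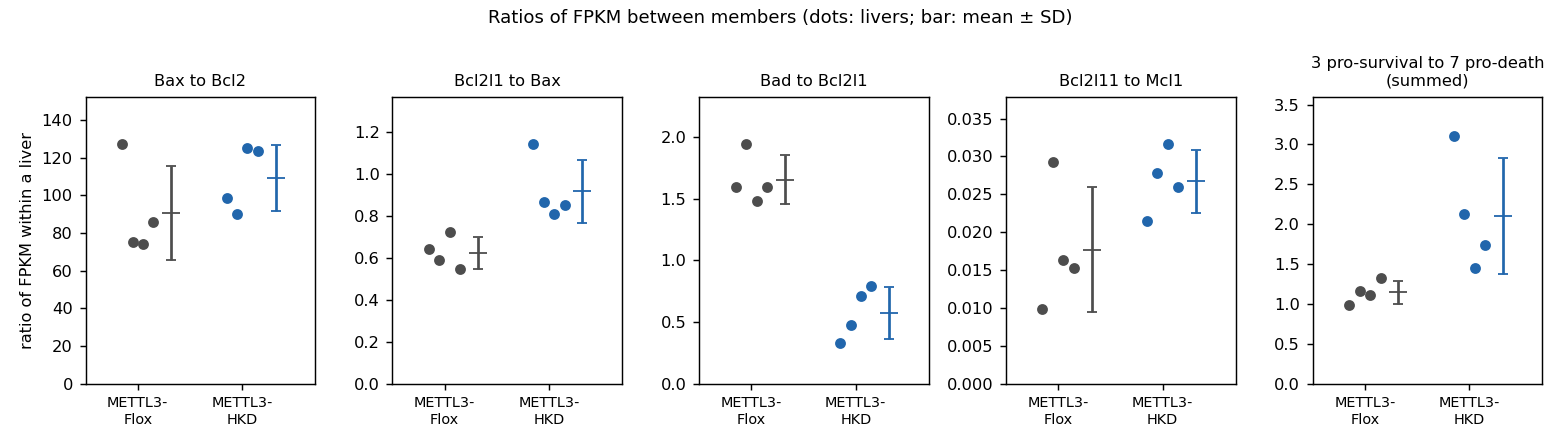
Ratios of FPKM between members within each liver, with livers 1 to 4 of each genotype as dots and the mean ± SD as a bar; each axis starts at 0. Bax to Bcl2 and Bcl2l11 to Mcl1 overlapped between the genotypes, whereas Bcl2l1 to Bax, Bad to Bcl2l1 and the ratio of the 3 pro-survival to the 7 pro-death genes did not.

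The rest of the family was described by 15 further genes, of which 12 passed the filter on low values, with 2 called higher and 1 lower. Of all genes tested, 9.05% were called higher and 6.63% lower. Bcl2l14, which encodes a BCL2-like protein also called BCL-G, had 0.0321 to 0.212 FPKM in METTL3-Flox livers and 0.419 to 2.95 FPKM in METTL3-HKD livers, for which limma gave a log2 fold change of 2.79 ± 0.525 (SE; adjusted p = 0.0121). It rested on 2 to 14 reads per METTL3-Flox liver. Bcl2a1d, one of the mouse genes for the survival protein A1 of leukocytes, had 0.0717 to 0.610 FPKM in METTL3-Flox livers and 0.834 to 2.82 FPKM in METTL3-HKD livers, for which limma gave a log2 fold change of 1.77 (adjusted p = 0.0474). Its split from the near-identical Bcl2a1a and Bcl2a1b is uncertain, and its highest value was in METTL3-HKD liver 1, the liver with the highest neutrophil markers. Its call was lost in 7 of the 8 fits that left out 1 liver (all but that without METTL3-HKD liver 3), with an adjusted p of up to 0.115, whereas that of Bcl2l14 was kept in all 8.
Bmf, a BH3-only gene whose protein is tied to the cytoskeleton, was the only other BH3-only gene of the 15 that fell. It had 1.34, 4.02, 3.71 and 2.79 FPKM in METTL3-Flox livers 1 to 4 and 0.407, 1.14, 1.03 and 0.778 FPKM in METTL3-HKD livers 1 to 4. The groups did not overlap, and limma fitted a log2 fold change of −1.68 ± 0.382 (SE; adjusted p = 0.0226). Without METTL3-Flox liver 2, 3 or 4 or METTL3-HKD liver 1 the call was lost, at an adjusted p of up to 0.0668. Bik, another BH3-only gene, had a log2 fold change of −0.78 (adjusted p = 0.0644) and Bok, an effector, one of −0.45 (adjusted p = 0.0677, both from limma), which missed the threshold. Bcl2l2, which encodes the survival protein BCL-W, had 4.97 to 5.76 FPKM in METTL3-Flox livers and 4.60 to 5.80 FPKM in METTL3-HKD livers, a log2 fold change of −0.02 with a 95% confidence interval from −0.25 to 0.21. The mitophagy receptors Bnip3 and Bnip3l had the highest levels of the 15, with means of 42.1 and 19.5 FPKM in METTL3-Flox livers and 38.1 and 20.5 FPKM in METTL3-HKD livers, and neither passed the test. The median log2 fold change of the 12 tested genes was 0.03.

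**Figure D4:**
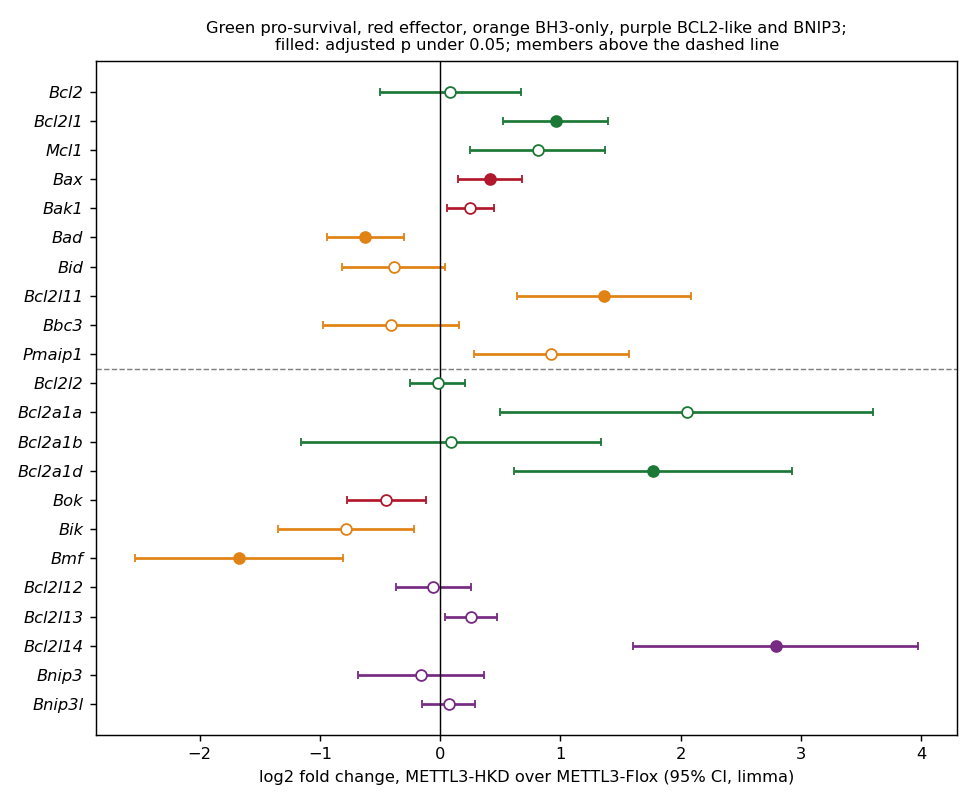
log2 fold change of METTL3-HKD over METTL3-Flox livers with its 95% confidence interval from limma, for the 10 members above the dashed line and 12 other tested genes of the family below it; filled points passed an adjusted p under 0.05. Of the members Bcl2l1, Bax and Bcl2l11 lay to the right and Bad to the left among filled points, and of the others Bcl2l14, Bcl2a1d and Bmf were filled.

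Downstream of the members, 14 genes of mitochondrial release and of the caspases were tested, and 1 was higher and 0 lower, with a median log2 fold change of −0.05. The shares over all genes tested were 9.05% higher and 6.63% lower. The called gene was Casp8, the initiator caspase that cleaves BID, with 9.73 to 12.2 FPKM in METTL3-Flox livers and 14.6 to 16.5 FPKM in METTL3-HKD livers, for which limma gave a log2 fold change of 0.50 ± 0.0978 (SE; adjusted p = 0.0134). The call was kept whichever liver was left out. Cycs, which encodes cytochrome c, had a log2 fold change of 0.18 (adjusted p = 0.239) and Vdac1, the most abundant of these genes, one of 0.00 (adjusted p = 0.987, both from limma).
Upstream, 13 transcription regulators known to act on members were tested, of which 6 were higher and 0 lower, with a median of 0.53. Over all genes tested these shares were 9.05% and 6.63%. Jun had 3.06 to 11.1 FPKM in METTL3-Flox livers and 21.7 to 34.7 FPKM in METTL3-HKD livers, for which limma gave a log2 fold change of 2.48 (adjusted p = 0.00540). The others were Mdm2 (0.72, adjusted p = 0.00888), Myc (1.60, adjusted p = 0.0130), Hif1a (1.01, adjusted p = 0.0133), Nfkb1 (0.67, adjusted p = 0.0136) and Trp53 (0.63, adjusted p = 0.0245), all log2 fold changes from limma. Trp53 encodes p53, and Mdm2 its inhibitor and target. Trp53 lost the call without METTL3-Flox liver 4 or METTL3-HKD liver 1 or 2 (adjusted p of up to 0.0666), and the other 5 kept it whichever liver was left out. Atf4, the most abundant of the regulators, had a log2 fold change of 0.29 with an adjusted p of 0.221.
Of 19 tested genes for proteins that bind, phosphorylate or degrade members, 3 were higher and 0 lower, with a median of 0.16. The count is to be read beside the 9.05% higher and 6.63% lower of all genes tested. Ywhaz and Ywhag encode 14-3-3 proteins, a family that holds phosphorylated BAD, and had log2 fold changes of 0.55 (adjusted p = 0.0162) and 0.53 (adjusted p = 0.0403, both from limma). The other 5 genes of the 14-3-3 family did not pass, at log2 fold changes from −0.11 for Ywhaq to 0.67 for Sfn. The value of Sfn exceeded those of Ywhaz and Ywhag but rested on 2 to 38 reads per liver, and that of Ywhah was 0.35. Pim1, a kinase known to phosphorylate BAD, had 4.88 to 6.88 FPKM in METTL3-Flox livers and 8.35 to 22.5 FPKM in METTL3-HKD livers, for which limma gave a log2 fold change of 1.15 (adjusted p = 0.0232). The kinase genes Akt1 (0.09), Akt2 (−0.21), Pim2 (0.24), Pim3 (−0.07) and Rps6ka1 (−0.17, all log2 fold changes) did not pass. Pim1 lost the call without METTL3-Flox liver 2, 3 or 4 or METTL3-HKD liver 2 (adjusted p of up to 0.0610), Ywhaz without METTL3-Flox liver 3 (0.0522) and Ywhag when any 1 of the METTL3-Flox livers was left out or without METTL3-HKD liver 1 or 2 (up to 0.102).

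Genes with the pattern most like each called member were found by the root-mean-square difference of their centred log2 values over the 8 livers, as a description. For Bcl2l1 these were Gm49336, Polr3d and Cdca4, at 0.0946 to 0.121. For Bax they were Polr1d, Ywhah and Metap2 (0.0395 to 0.0573), and for Bad F12, F10 and Ndufv3 (0.0560 to 0.0630). For Bcl2l11 they were F3, Abcb1a and Pdgfb (0.183 to 0.229). F12 and F10 encode coagulation factors made by the liver and were expressed at means of 218 and 136 FPKM. F3, the gene of tissue factor, had a mean of 1.62 FPKM.

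The promoters of the members were read from RefSeq (GRCm38.p6) to show which known motifs lie next to them. Of the 10 members 9 were matched by symbol, with 15 promoters, against 32851 promoters of all genes. The 250 bases before the start of Bax (chr7:45466899-45467148, minus strand) and of Bcl2l11 (chr2:128125788-128126037, plus strand) are printed, since each holds a motif of a factor known to act on that gene. Capitals in Bax mark a p53 half-site and the E-box CACGTG, and those in Bcl2l11 mark the FOXO motif TGTTTAC on the other strand.
Bax: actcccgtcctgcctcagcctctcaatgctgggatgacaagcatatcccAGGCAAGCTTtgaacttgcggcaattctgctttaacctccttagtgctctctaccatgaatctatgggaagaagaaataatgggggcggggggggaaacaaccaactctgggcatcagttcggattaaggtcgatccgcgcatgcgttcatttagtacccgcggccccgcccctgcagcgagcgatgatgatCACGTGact
Bcl2l11: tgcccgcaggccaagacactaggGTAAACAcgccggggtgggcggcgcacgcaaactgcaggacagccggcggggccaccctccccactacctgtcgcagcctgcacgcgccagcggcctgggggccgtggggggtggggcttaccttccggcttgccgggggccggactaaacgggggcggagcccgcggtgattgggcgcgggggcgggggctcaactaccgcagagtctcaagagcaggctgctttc
The p53 half-site began 201 bases before the start of Bax, and 7.13% of all promoters hold such a match. The E-box began 9 bases before it (6.02% of all promoters) and overlaps the hypoxia core ACGTG on both strands (16.6%). The FOXO motif began 227 bases before the start of Bcl2l11 (3.17%). Bbc3, which did not pass the test and had a lower mean in METTL3-HKD livers, held the same FOXO motif 167 bases before 1 of its 3 starts, and the E-box with the hypoxia cores 64 bases before another. Foxo1 and Foxo3 themselves had log2 fold changes of −0.30 and −0.51, neither past the threshold (adjusted p = 0.106 and 0.101 from limma). An NF-kB motif was found before 1 start of Bcl2l1 and, in 2 overlapping matches, before 1 start of Bbc3 (7.25% of all promoters). The GC box GGGCGG was found in 10 of the 15 promoters, those of 7 members (32.7% of all promoters), whereas the AP-1 motif TGANTCA (6.75%), the CRE TGACGTCA (1.55%) and the STAT motif TTCNNNGAA (7.02%) were found in none of the 15. Both strands were searched for every motif.
METTL3 methylates adenosine within a short sequence context of which GGACT is the best-known form, so its occurrence was counted in the mRNA of the members. The first-numbered coding transcript held 3 matches in 867 bases for Bax, which at 3.46 per kilobase was above 98.6% of the transcripts of tested genes, and the next highest density was that of the uncalled Bbc3 (2.76 per kilobase, above 96.2%). It held 3 in 1452 bases for Bad, 3 in 2417 bases for Bcl2l1, 3 in 2490 bases for Bcl2l11 and 8 in 3418 bases for Mcl1, densities above 88.0%, 59.8%, 58.2% and 92.4% of those transcripts. The lowest density was that of Pmaip1 at 0.733 per kilobase. Of 13104 such transcripts of tested genes, 90.1% held at least 1 match, at a median of 3 matches and of 1.07 per kilobase. The 3 matches of Bax were thus no more than the median count, and its high density came with its short transcript of 867 bases. Methylation was not measured in these libraries.

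How the calls of the members moved with the analysis is shown for 16 alternatives. Bcl2l1 was past the threshold in 16 of 16, Bcl2l11 in 12, Bad in 11 and Bax in 7, while Mcl1 was past it in 4, Pmaip1 in 3 of 15 and Bak1 in 1. Bid and Bbc3 were past it in none of 16 and Bcl2 in none of 15. With libraries rescaled to the reads that fell on genes, the median over all genes tested went from −0.00 to 0.20 on the log2 scale and higher genes made up 86.1% of all calls, against 57.7% with the deposited scaling. Then 7 members were called, 6 higher and 1 lower, against 3 and 1, and 16.1% of all genes tested were called. In the other alternatives this share was between 6.62% and 22.5%. Relative to that shift the log2 fold changes were close to those above, at 0.98 for Bcl2l1, 0.83 for Mcl1, 0.43 for Bax, 0.27 for Bak1, 1.36 for Bcl2l11 and −0.60 for Bad.

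**Figure D5:**
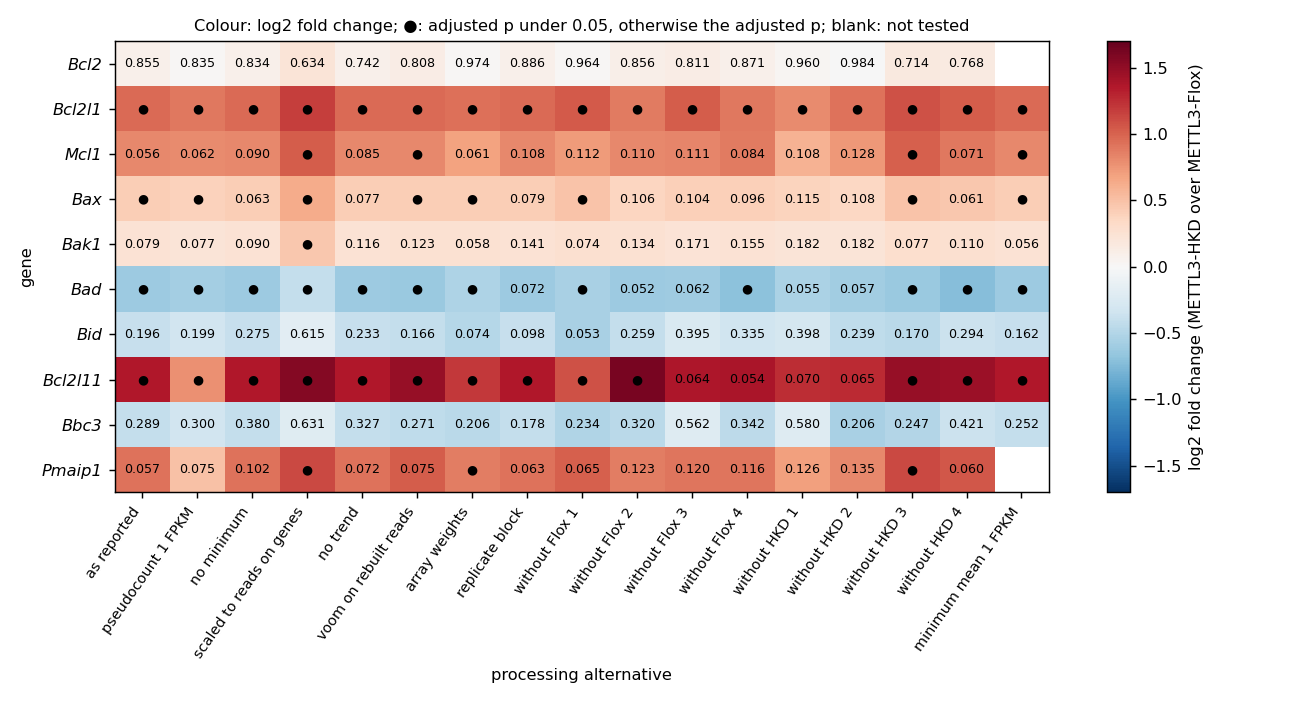
log2 fold change of each member (colour, rows) in the analysis as reported and in 16 alternatives (columns), with a dot where the adjusted p from limma was under 0.05 and the adjusted p printed otherwise; blank cells were not tested. Bcl2l1 kept its dot in every column, and the columns without METTL3-Flox liver 3, METTL3-HKD liver 1 or METTL3-HKD liver 2 left it as the only member past the threshold.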

How the data were processed

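RNA sequencing of livers from 4 METTL3-HKD and 4 METTL3-Flox mice was analysed, with groups taken from the sample labels. The labels name an RNeasy kit and a SMARTer mRNA-Seq kit, and the submitters' processing notes name GRCm38 and mm10. Which aligner, counter, annotation and strand setting were used is not given in the sources used here. The authors deposited FPKM per gene with gene lengths, scaled to library sizes that differ from the reads on genes. FPKM multiplied by length and by a library size gave whole reads (within 0.05), which were used for depth and for 2 alternatives. No column was left without a sample. The precision of low genes is limited by their reads.

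The 16645 genes whose mean reached 0.1 FPKM were compared on log2(FPKM + 0.1) with limma 3.58.1 in R 4.3.3 (lmFit, eBayes with trend, Benjamini-Hochberg adjustment over all genes tested), with a threshold of 0.05. The fit was tested on simulated data. A fold change on this scale understates the change of genes with low values. Single genes and the Bax to Bcl2 ratio were also compared by exact permutation, by listing all arrangements (Python 3.11.15, numpy 2.4.6). The members, the lists of related genes and the markers were chosen with earlier results of these data known. Named genes are the 10 members, called genes of the lists (at most 6 per list), the most abundant genes of a list, the 3 genes most alike in pattern to each called member, and Mettl3. A few genes of the family or beside a motif that missed the threshold, and Gpr137, are not covered by this rule and were picked with their values in view. A second row named Ddit3, at 0 in every liver, was left out, and 1 lymphocyte marker is not reported here. Sequences came from the GRCm38 genome with GENCODE M21 and from RefSeq (GRCm38.p6). The alternatives were other pseudocounts, filters, scaling, no trend, voom, array weights, a replicate block and the omission of each liver.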

Additional observations from a re-analysis of the deposited data

How the results depend on the processing

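Over the 16 alternatives, 131 of 158 fitted values of single members stayed on the same side of the threshold with the same sign, 18 lost and 8 gained the call, and 1 turned its sign (Bcl2, −0.0117 without METTL3-HKD liver 2, within a leave-one-out range of −0.0117 to 0.169). The count of called members was 4. It was 7 when libraries were scaled to their reads on genes and 1 to 6 when single livers were left out, with 1 without METTL3-Flox liver 3, METTL3-HKD liver 1 or METTL3-HKD liver 2, and 6 without METTL3-HKD liver 3. With a log2 fold change of at least 1 also required, the count of 1 became 0 with a pseudocount of 1 FPKM, 4 with the other scaling, and 0 to 4 when single livers were left out. The number of all called genes, 2610, became 1616 with the replicate block, 1886 without a minimum, 1992 without a trend and 1102 to 2807 when single livers were left out. No pairing by replicate number was seen, as deviations of same-numbered livers correlated at −0.084 to 0.071 and those of differently numbered livers at −0.067 to 0.094. Such correlations cannot exclude a pairing by litter or by day. The replicate block left 2 members called, Bcl2l1 and Bcl2l11, where 9.71% of all genes were called. Bax and Bad then had an adjusted p of 0.0791 and 0.0721 from limma. The Bax to Bcl2 ratio had a log2 difference of 0.331 (exact permutation p = 0.114) with 0.1 FPKM added. The difference was 0.209 to 0.467 when single livers were left out, and 0.292 with the replicate block. For the replicate block, a two-sided exact permutation test within same-numbered pairs of livers gave p = 0.375. That test has fewer than 70 arrangements and cannot reach 0.05, so no conclusion is drawn from it. Depth limits Bcl2 and, in METTL3-Flox livers, Pmaip1, with 22 to 28 reads per liver. The cause of these changes was not tested.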
